A study of Homo sapiens with 18 samples.

Results

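The genes studied here are 30 genes of cholesterol and fatty acid synthesis named by symbol for their place in the pathway. They comprise 7 genes of the mevalonate and isoprenoid steps, 11 of the squalene and sterol steps, 5 regulators and carriers, and 7 of fatty acid synthesis and desaturation. All 30 were found in each of the 3 deposited tables, among 17561 genes listed in any table and 14549 listed in all 3. The tables come from BL-41, Namalwa and Jiyoye, established cell lines of Burkitt lymphoma, in which a translocated MYC gene drives the growth of B cells. BL-41 is negative for Epstein-Barr virus (EBV), and Namalwa and Jiyoye are positive. What sets BL-41 apart as a line and its EBV status cannot be told apart here. Cells of each line were infected with a lentivirus that expresses either a short hairpin RNA (shRNA) against the transcription factor FOXO3 or a scrambled shRNA, in a vector that also codes for the red protein TagRFP, and were sorted on day 4. Both arms of a line therefore carry the vector and passed the sort. The series holds 6 groups with 3 libraries in each, 18 in all, made from messenger RNA enriched with oligo-dT. The labels speak of triplicates and do not name separate cultures, so a p-value here reflects the spread among libraries alone, and that spread may be technical. Each table gives 1 normalized value per arm, and values of single libraries were not used here.

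Cholesterol is built from acetyl-CoA by way of mevalonate, isoprenoid diphosphates, squalene and lanosterol, and fatty acids are built from the same precursor by fatty acid synthase. Most enzymes of both routes are transcribed under the SREBP factors, coded by SREBF1 and SREBF2. These are held in the endoplasmic reticulum with SCAP and INSIG1 while sterol is plentiful and are cut and sent to the nucleus when it is scarce. At promoters they bind the sterol regulatory element (SRE), often together with the factor NF-Y, which binds the CCAAT box. Dividing B cells need both kinds of lipid for new membrane.

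FOXO3, the targeted gene, had values of 945 with scrambled and 545 with FOXO3 shRNA in BL-41 (log2 fold change -0.79, adjusted p = 3.15e-07 by DESeq2) in the authors' deposited table. Its values were 851 with scrambled and 398 with FOXO3 shRNA in Namalwa (-1.09, adjusted p = 2.49e-09) and 471 with scrambled and 384 with FOXO3 shRNA in Jiyoye (-0.30, adjusted p = 0.187 by DESeq2) in the authors' deposited table. FOXO3 thus fell in BL-41 and Namalwa and was not called in Jiyoye, so any direction in Jiyoye is that of the libraries labelled FOXO3 shRNA. The values of an arm summed to between 17065755 and 18459745 over the 6 arms, which are sums of normalized values and not read totals. The median standard error (SE) of a log2 fold change, recovered from the deposited fold change and p, was 0.14 for BL-41, 0.13 for Namalwa and 0.15 for Jiyoye among genes whose arms averaged 100 or more. Over all genes it was at most 0.60, 0.42 and 0.54, and genes averaging under 1 had a smaller median SE (0.33, 0.17 and 0.28) and a smaller median size of change (0.13, 0.06 and 0.10) than genes averaging from 1 to 10 (SE 0.58, 0.39 and 0.52, change 0.39, 0.19 and 0.30). The deposited fold changes thus behave as moderated values, drawn towards 0 for genes with little information and by an amount that differs between lines, and they may understate the change of low genes. The 6 B cell markers were present in every line, with scrambled values from 124 (MS4A1 in Namalwa) to 17157 (CD79A in BL-41) in the authors' deposited table. Of 4 myeloid markers, 3 rose in BL-41 and 1 in Jiyoye, and their summed value went from 84.8 to 212 in BL-41, 57.4 to 64.7 in Namalwa and 143 to 187 in Jiyoye. Of the 6 B cell markers, 2 fell in BL-41 and 2 rose in Jiyoye, and 2 of 3 germinal centre markers fell in BL-41. Beside these counts, 14.5% of all genes rose and 14.2% fell in BL-41, and 8.69% rose and 8.7% fell in Jiyoye. The T cell markers summed to at most 76.2 in any arm. KRT8, a keratin of epithelial cells, had 2978 with scrambled and 1823 with FOXO3 shRNA in Jiyoye, where it fell, and 21.9 with scrambled shRNA in BL-41 in the authors' deposited table. The other measured genes of its list were not called in Jiyoye. With scrambled shRNA there, KRT18 had 194, COL1A1 had 174 and EPCAM had 1.76 in the authors' deposited table. In such bulk samples, fewer cells of a type and less RNA per cell cannot be told apart. The part of these markers in the results below was not tested.

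Stretches of 4 promoters are shown because they place the SRE and the CCAAT box beside genes that moved in different ways. Each lies upstream of a start listed by RefSeq (GRCh38.p14) and reads 5′ to 3′ on the gene's strand, with the motifs in capitals: TCACCCCAC is a match to the SRE in SREBF2, and CCAAT or its reverse ATTGG is the NF-Y box.
SREBF2, chr22:41832955-41833014, plus strand: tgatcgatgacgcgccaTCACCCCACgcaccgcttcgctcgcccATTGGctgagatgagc
MVK, chr12:109573581-109573757, plus strand: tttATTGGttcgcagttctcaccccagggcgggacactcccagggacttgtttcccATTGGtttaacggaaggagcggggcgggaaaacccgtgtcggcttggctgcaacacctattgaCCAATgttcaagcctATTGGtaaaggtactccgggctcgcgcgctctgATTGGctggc
MVD, chr16:88663162-88663261, minus strand: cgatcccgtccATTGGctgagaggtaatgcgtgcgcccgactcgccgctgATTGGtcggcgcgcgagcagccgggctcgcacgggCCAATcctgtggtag
MSMO1, chr4:165327519-165327666, plus strand: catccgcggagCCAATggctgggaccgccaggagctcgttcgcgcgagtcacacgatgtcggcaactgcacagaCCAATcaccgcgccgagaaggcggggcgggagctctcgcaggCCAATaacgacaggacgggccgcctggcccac
The stretch of MVK holds 5 NF-Y boxes, those of MVD and MSMO1 hold 3 each, and that of SREBF2 holds 1 beside its SRE. MVK rose in BL-41 while MVD and MSMO1 fell there. The genes were chosen for moving in different ways, so this contrast follows from the choice. Of the other members with 3 or more boxes near a listed start, IDI1 rose in BL-41. NSDHL, EBP and FDPS were not called there. The part of the CCAAT box in these changes was not tested.

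A promoter of 300 bases (250 before to 50 after the start) was matched by symbol for 26 of the 30 genes, all but ACAT2, SQLE, FDFT1 and FASN. Motifs were searched on both strands, and a gene with several listed starts was counted where any of them held the motif. The shares of members and of expressed genes are thus per gene. The share of all promoters counts each listed promoter singly, so it is not a like measure. CCAAT was found in 20 of 26 genes (76.9%), against 44.6% of 7222 genes averaging 100 or more in every line and 34.6% of all 35116 promoters. The GC box GGGCGG was found in 25 of 26 genes (96.2%), against 78.9% of the 7222 expressed genes and 45% of all promoters. The SRE, searched as TCACNCCAC, was found only in SREBF2 among the 26 (3.85%), against 1.55% of expressed genes and 1.13% of all promoters. The E-box CACGTG was found in SCAP, INSIG1, SC5D and LSS (15.4%), against 13.6% of expressed genes and 7.26% of all promoters. The FOXO site GTAAACA was found only in ELOVL6 (3.85%), against 3.48% and 3.42%. Motifs can share bases at their ends: an SRE that follows CCAA shares its opening T with a CCAAT box, and ATTGG can share its final letters with GGGCGG. A match is a description of these letters and not a bound site. These shares are shown without a test.

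With scrambled shRNA, levels per kilobase (the authors' normalized value over their transcript length in kilobases) placed SREBF2 and SCD at the top in BL-41. SCD codes for the stearoyl-CoA desaturase. SREBF2 stood at 1782 per kilobase and SCD at 1437 in BL-41, SCD at 2405 and FDPS at 2092 in Namalwa, and SCD at 4464 and FDFT1 at 2515 in Jiyoye, from the authors' deposited table. FDPS makes farnesyl diphosphate and FDFT1 joins it to squalene. The lowest of the 30 was MVK, mevalonate kinase, in BL-41 (75.9 per kilobase), and FADS1, a fatty acid desaturase, in Namalwa (3.35) and Jiyoye (2.46), from the authors' deposited table. The lengths were not identical between tables for 23 of the 30 genes.

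The desaturase pair FADS1 and FADS2 set the lines apart. These genes make polyunsaturated fatty acids and lie head to head on chromosome 11, FADS1 from 61799627 to 61817003 on the minus strand and FADS2 from 61816203 to 61867354 on the plus strand (GRCh38.p14). In the authors' deposited table FADS1 had a scrambled value of 613 for BL-41, 14.9 for Namalwa and 10.9 for Jiyoye. For FADS2 the values were 744, 107 and 46.3 in the authors' deposited table. Both were thus high in BL-41 and low in the other lines. The ratio of BL-41 to Namalwa was 41.3 for FADS1, and 2.42% of 10306 genes with a scrambled value of at least 100 in either line had a ratio at least as far from 1. For BL-41 over Jiyoye it was 56.2 (4.15% of 10729 genes). FADS2 gave 6.94 (5.05%) and 16.1 (6.44%). FADS1 met the limit of 100 in BL-41 alone, as did FADS2 in the comparison with Jiyoye. These shares thus describe the size of the ratios and are not a test of them. ELOVL6, which lengthens saturated chains, was lower in Jiyoye (461) than in BL-41 (1595) or Namalwa (1429) in the authors' deposited table. In the opposite order, SCD had 24430.2 in Jiyoye, 13165 in Namalwa and 7865 in BL-41 in the authors' deposited table. STARD4, a carrier of sterol between membranes, had 1843, 576 and 644 in that order, and INSIG1 had 2017, 3160.5 and 1031 in the authors' deposited table. STARD4 was thus highest in Jiyoye and INSIG1 in Namalwa. The median log2 ratio over the 30 genes was -0.53 for BL-41 over Namalwa and -0.58 for BL-41 over Jiyoye, against -0.05 and 0.03 over the compared genes. The tables were normalized separately and each line is 1 cell line, so these levels stand side by side with no test.

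**Figure D1:**
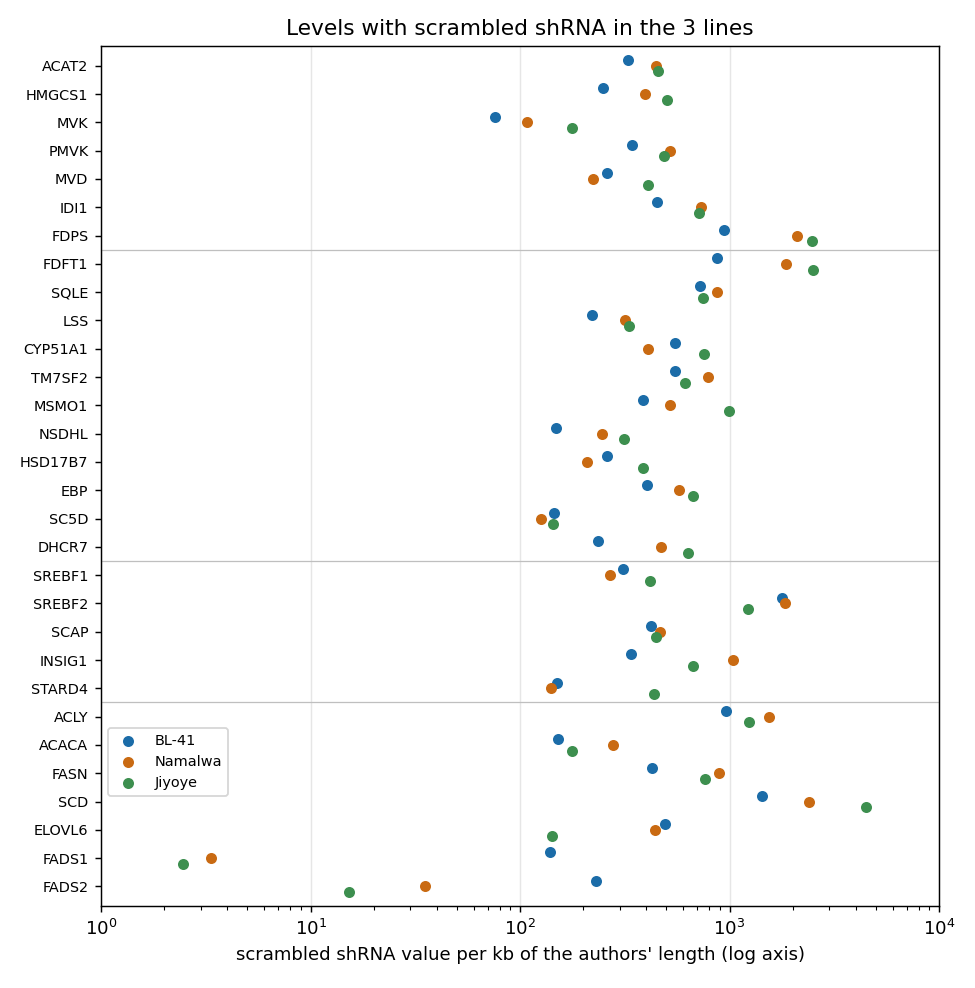
Scrambled shRNA value per kilobase of the authors' transcript length (log axis) for the 30 genes, grouped by step from mevalonate (top) to fatty acids (bottom), with 1 point per line and no error since the tables hold 1 value per arm. FADS1 and FADS2 lie far lower in Namalwa and Jiyoye than in BL-41.

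With FOXO3 shRNA, 5 of the 30 genes rose and 8 fell in BL-41, 0 rose and 1 fell in Namalwa, and 4 rose and 1 fell in Jiyoye (adjusted p under 0.05, DESeq2, as deposited). At an unadjusted p under 0.05 (DESeq2), 7 had a positive and 10 a negative change in BL-41, 1 and 2 in Namalwa, and 10 and 2 in Jiyoye. Of all 16787 genes in Jiyoye, 2318 and 2325 did. The fold change was positive for 21 of the 30 in Jiyoye, against 8675 of all 16787 genes. The called share was 43.3% in BL-41, against 28.7% of all genes and 40.7% of genes averaging 100 or more, a limit that all 30 genes met there. In Namalwa it was 3.33% against 6.41% and 9.61%, and 29 genes met the limit. Jiyoye gave 16.7% against 17.4% and 25.5%, and 28 met it. The share of called genes was therefore close to that of comparably expressed genes in BL-41 and below it in the others. By direction, 14.5% of all genes rose and 14.2% fell in BL-41, 2.6% rose and 3.81% fell in Namalwa, and 8.69% rose and 8.7% fell in Jiyoye. Among genes averaging 100 or more, 20% rose and 20.7% fell for BL-41, against 3.85% and 5.76% for Namalwa and 12.7% and 12.8% for Jiyoye. The median log2 fold change of the 30 was -0.00 for BL-41, -0.03 for Namalwa and 0.14 for Jiyoye, and that of all genes was 0.02, -0.00 and 0.01. No uniform shift of the pathway was seen in BL-41, where members fell and rose at neighbouring steps.

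**Figure D2:**
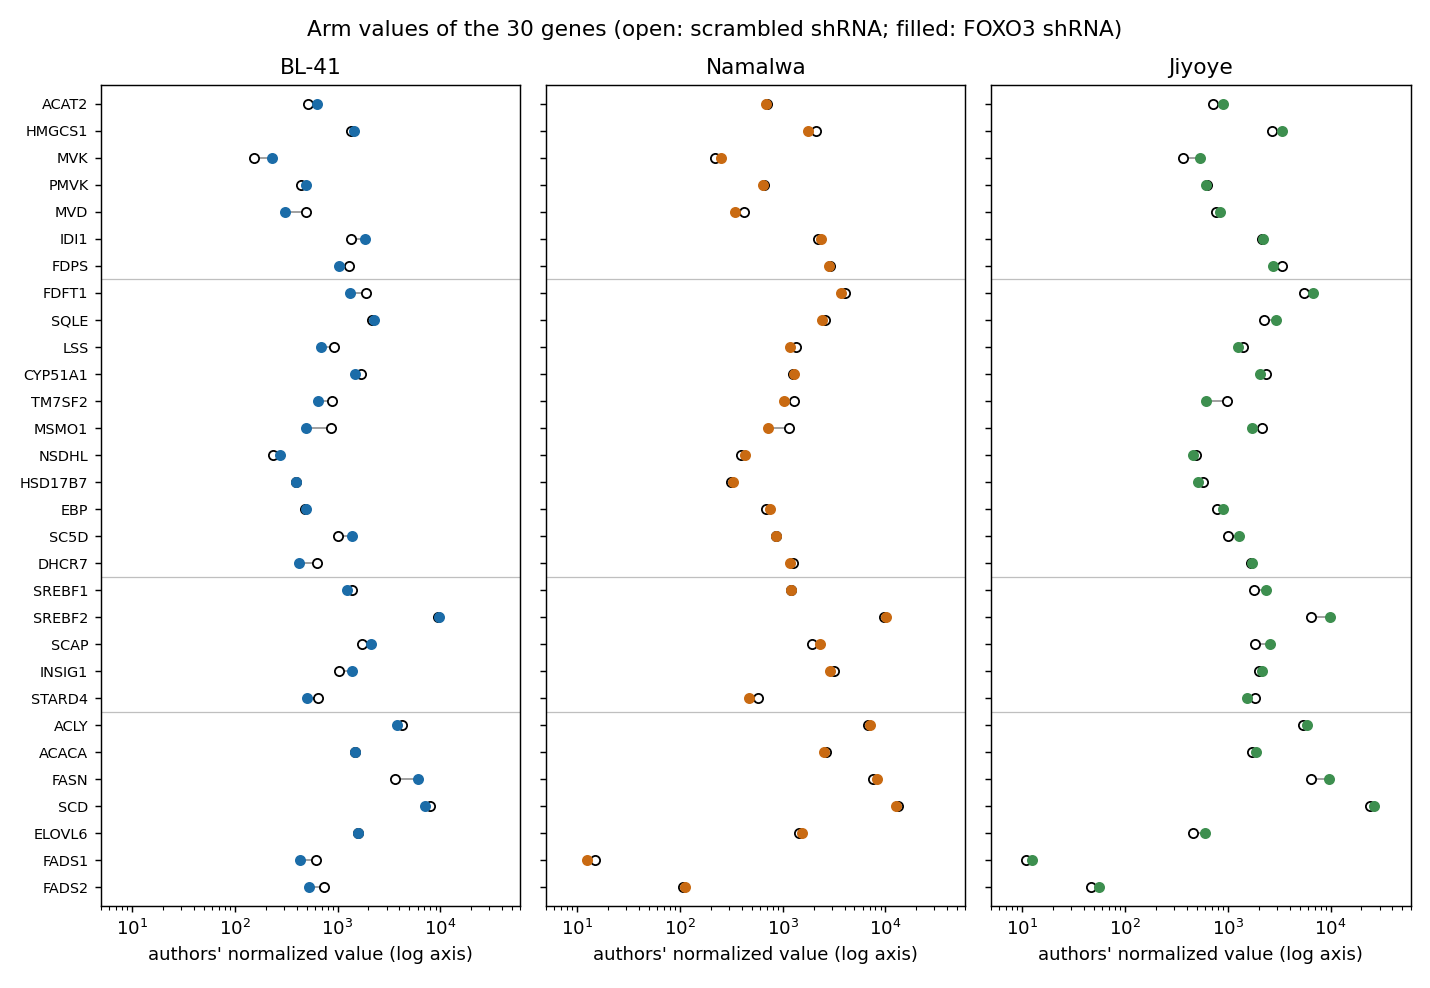
Authors' normalized value (log axis) of each of the 30 genes with scrambled shRNA (open) and FOXO3 shRNA (filled) in BL-41, Namalwa and Jiyoye, 1 value per arm with no error. The arms are farthest apart for MSMO1, FASN and MVD in BL-41, for TM7SF2, SREBF2 and MVK in Jiyoye, and for MSMO1 in Namalwa.

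Over the lines, 16 genes were called in none, 9 in 1 line, 5 in 2 lines and 0 in all 3. MVK, SCAP and FASN rose and TM7SF2 fell in BL-41 and Jiyoye, and MSMO1 fell in BL-41 and Namalwa. The fold change was positive in all 3 lines for MVK, IDI1, EBP, SREBF2, SCAP and FASN, and negative in all 3 for FDPS, LSS, TM7SF2, MSMO1 and STARD4. This makes 36.7% with 1 sign throughout, against 57.1% of 8870 genes averaging 100 or more in every line. Across the 30 genes, fold changes of BL-41 and Namalwa had Pearson's r of 0.65, those of BL-41 and Jiyoye 0.52, and those of Namalwa and Jiyoye 0.51. Among genes averaging 100 or more in both lines, r was 0.66, 0.62 and 0.60. These are correlations across genes, which are not independent replicates.

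Below, a value after ± is the recovered SE. Of the mevalonate and isoprenoid genes, MVK and IDI1 rose and MVD fell in BL-41, MVK rose in Jiyoye, and the others were not called. Under the stricter Benjamini-Yekutieli adjustment, MVK (adjusted p = 0.0508 in BL-41 and 0.0767 in Jiyoye) and IDI1 (0.0526) no longer passed. In the authors' deposited table, MVK had 152 with scrambled and 232 with FOXO3 shRNA in BL-41, 222 with scrambled and 249 with FOXO3 shRNA in Namalwa and 363 with scrambled and 542 with FOXO3 shRNA in Jiyoye. Higher values with FOXO3 shRNA were seen in each line. Its log2 fold changes were 0.60 ± 0.18, 0.17 ± 0.18 and 0.58 ± 0.17 in the authors' deposited table, with an adjusted p of 0.00495, 0.781 and 0.00744 (DESeq2). MVD, mevalonate diphosphate decarboxylase, acts on the same chain of intermediates and had 489.9 with scrambled and 309 with FOXO3 shRNA in BL-41, 418 with scrambled and 344 with FOXO3 shRNA in Namalwa and 763 with scrambled and 839 with FOXO3 shRNA in Jiyoye in the authors' deposited table. It fell in BL-41 by 0.66 on the log2 scale (SE 0.17, adjusted p = 0.000547, DESeq2), with -0.28 ± 0.16 in Namalwa and 0.14 ± 0.13 in Jiyoye (adjusted p = 0.368 and 0.585) in the authors' deposited table. PMVK, the kinase between them, had 0.18 ± 0.15, -0.04 ± 0.11 and -0.01 ± 0.14 in BL-41, Namalwa and Jiyoye in the authors' deposited table, and was not called. Genes of nearby reactions thus moved apart in BL-41.

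IDI1, the isomerase that makes dimethylallyl diphosphate, had 1359.5 with scrambled and 1869 with FOXO3 shRNA in BL-41, 2194 with scrambled and 2385 with FOXO3 shRNA in Namalwa and 2139 with scrambled and 2221 with FOXO3 shRNA in Jiyoye in the authors' deposited table. It rose in BL-41 by 0.46 (SE 0.14, adjusted p = 0.00512, DESeq2), while 0.12 ± 0.09 in Namalwa and 0.05 ± 0.16 in Jiyoye in the authors' deposited table were not called. FDPS had 1302 with scrambled and 1034 with FOXO3 shRNA in BL-41 and 3364 with scrambled and 2774 with FOXO3 shRNA in Jiyoye in the authors' deposited table, with log2 fold changes of -0.33 and -0.28 that did not pass (adjusted p = 0.0593 and 0.172, DESeq2). RefSeq lists 10 pseudogenes named for FDPS, 3 for IDI1, 3 for CYP51A1, 2 for HSD17B7 and 1 for SCD, and reads from such copies may be split or shared, so these values are less certain. HMGCS1, the synthase that forms HMG-CoA, had 0.09 ± 0.19, -0.26 ± 0.17 and 0.31 ± 0.19 in BL-41, Namalwa and Jiyoye in the authors' deposited table. ACAT2, a thiolase that joins acetyl-CoA units, had 0.29 ± 0.13, -0.03 ± 0.11 and 0.31 ± 0.13 in the authors' deposited table. Neither was called in any line by DESeq2.

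Strand use in counting is not given in the sources used here, and 6 of the 30 genes share exonic bases with a protein-coding gene on the opposite strand (GENCODE 44). ACAT2 shares 454 bases with TCP1, a chaperonin subunit, whose log2 fold changes were 0.66, 0.37 and 0.43 in the authors' deposited table. MVK shares 225 bases with MMAB, a cobalamin enzyme gene, which had -0.59, -0.37 and -0.26 in BL-41, Namalwa and Jiyoye in the authors' deposited table, opposite in sign to MVK in each. FADS1 and FADS2 share 490 bases with each other, SREBF1 shares 556 with RAI1, and CYP51A1 shares 108 with AKAP9. Counting noncoding genes as well, 15 of the 30 share exonic bases with a gene on the opposite strand. Among these, HMGCS1 shares 2497 bases with a noncoding gene, SREBF2 731, FDPS 693 and IDI1 643. Reads in these stretches cannot be assigned to either gene without strand.

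Of the 11 squalene and sterol genes, FDFT1, LSS, TM7SF2, MSMO1 and DHCR7 fell and SC5D rose in BL-41, beside 14.2% of all genes and 20.7% of those averaging 100 or more that fell there. These 11 genes were not tested against the others. LSS (adjusted p = 0.0559) and SC5D (0.0794) no longer passed under the Benjamini-Yekutieli adjustment. MSMO1, the methylsterol monooxygenase that removes methyl groups of lanosterol products, had 855 with scrambled and 492 with FOXO3 shRNA in BL-41, 1157 with scrambled and 720.2 with FOXO3 shRNA in Namalwa and 2162 with scrambled and 1727 with FOXO3 shRNA in Jiyoye in the authors' deposited table. Lower values with FOXO3 shRNA were seen in every line. By line in the same order, the authors' deposited table gave log2 fold changes of -0.80 ± 0.13, -0.68 ± 0.17 and -0.32 ± 0.23, with an adjusted p of 5.71e-08, 0.00336 and 0.393 (DESeq2). It was the only one of the 30 genes called in Namalwa. TM7SF2, a sterol reductase, had 887 with scrambled and 642 with FOXO3 shRNA in BL-41, 1279 with scrambled and 1024 with FOXO3 shRNA in Namalwa and 991 with scrambled and 609.9 with FOXO3 shRNA in Jiyoye in the authors' deposited table. Its changes were -0.47 ± 0.14, -0.32 ± 0.13 and -0.70 ± 0.17 in the authors' deposited table, with an adjusted p of 0.00453, 0.141 and 0.000411 (DESeq2), and it was the only gene of the 30 to fall in Jiyoye. LBR, which codes for a second enzyme of that reduction, also fell in BL-41 (-0.36 ± 0.09, adjusted p = 0.000973, DESeq2) in the authors' deposited table.

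FDFT1, squalene synthase, had 1906 with scrambled and 1332 with FOXO3 shRNA in BL-41, 4067 with scrambled and 3738 with FOXO3 shRNA in Namalwa and 5507 with scrambled and 6743 with FOXO3 shRNA in Jiyoye in the authors' deposited table. It fell in BL-41 (-0.52 ± 0.14, adjusted p = 0.00213) and had -0.12 ± 0.10 in Namalwa and 0.29 ± 0.12 in Jiyoye (adjusted p = 0.656 and 0.0601, DESeq2) in the authors' deposited table. The arms were therefore in opposite order in BL-41 and Jiyoye. DHCR7, which closes the pathway by reducing dehydrocholesterol, had 626 with scrambled and 419.6 with FOXO3 shRNA in BL-41, 1254 with scrambled and 1183 with FOXO3 shRNA in Namalwa and 1694 with scrambled and 1722 with FOXO3 shRNA in Jiyoye in the authors' deposited table. It fell in BL-41 (-0.58 ± 0.15, adjusted p = 0.00102, DESeq2) and was close to 0 in Namalwa (-0.08 ± 0.14) and Jiyoye (0.02 ± 0.12) in the authors' deposited table. LSS, which cyclizes squalene epoxide to lanosterol, had 920.4 with scrambled and 689.7 with FOXO3 shRNA in BL-41 in the authors' deposited table and fell by 0.42 on the log2 scale (SE 0.13, adjusted p = 0.00545, DESeq2). Its changes in Namalwa (-0.19) and Jiyoye (-0.14) in the authors' deposited table had the same sign and were not called.

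SC5D, the desaturase that acts just before DHCR7, went the other way from it in BL-41. It had 1012 with scrambled and 1388 with FOXO3 shRNA in BL-41, 871 with scrambled and 862 with FOXO3 shRNA in Namalwa and 1002 with scrambled and 1300.5 with FOXO3 shRNA in Jiyoye in the authors' deposited table. It rose in BL-41 (0.46 ± 0.14, adjusted p = 0.00774) and was not called in Namalwa (-0.01 ± 0.12) or Jiyoye (0.38 ± 0.17, adjusted p = 0.107, DESeq2) in the authors' deposited table. The other 5 genes of these steps were not called in any line by DESeq2. Among them SQLE, the squalene epoxidase that limits flux, had 0.06 ± 0.16, -0.10 ± 0.12 and 0.40 ± 0.17 in BL-41, Namalwa and Jiyoye in the authors' deposited table. CYP51A1, lanosterol demethylase, had -0.22, 0.02 and -0.17, and NSDHL, the dehydrogenase that works with MSMO1, had 0.22, 0.14 and -0.12 in the authors' deposited table. HSD17B7, a sterol ketone reductase, had -0.00, 0.07 and -0.15, and EBP, the sterol isomerase, had 0.05, 0.13 and 0.19 in the authors' deposited table. Of the partners of MSMO1 in removing methyl groups, neither NSDHL nor HSD17B7 was called beside it.

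Among the regulators, SCAP rose in BL-41 and Jiyoye and SREBF2 rose in Jiyoye. SREBF2, on chromosome 22 from 41833105 to 41907305 (GRCh38.p14), codes for the SREBP that mainly drives cholesterol synthesis. It had 9442 with scrambled and 9798 with FOXO3 shRNA in BL-41, 9749 with scrambled and 10136 with FOXO3 shRNA in Namalwa and 6524 with scrambled and 9952 with FOXO3 shRNA in Jiyoye in the authors' deposited table. Jiyoye had the lowest scrambled value of the lines, while the values with FOXO3 shRNA were alike in all 3, across tables that were normalized separately. For SREBF2 the authors' deposited table gave, by line in the same order, log2 fold changes of 0.05 ± 0.12, 0.06 ± 0.11 and 0.61 ± 0.12, with an adjusted p of 0.798, 0.865 and 5.31e-06 (DESeq2). SCAP, the escort that carries SREBPs to the Golgi, had 1747 with scrambled and 2115 with FOXO3 shRNA in BL-41, 1937 with scrambled and 2298 with FOXO3 shRNA in Namalwa and 1829 with scrambled and 2568 with FOXO3 shRNA in Jiyoye in the authors' deposited table. Its changes were 0.28 ± 0.11, 0.25 ± 0.11 and 0.49 ± 0.13 in the authors' deposited table, with an adjusted p of 0.0421, 0.18 and 0.0021 (DESeq2). The value in BL-41 lies just inside the threshold, and it did not pass under the Benjamini-Yekutieli adjustment (adjusted p = 0.432).

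SREBF1, which codes for the SREBP that mainly drives fatty acid synthesis, had 1373 with scrambled and 1225 with FOXO3 shRNA in BL-41, 1202 with scrambled and 1200.2 with FOXO3 shRNA in Namalwa and 1812 with scrambled and 2364 with FOXO3 shRNA in Jiyoye in the authors' deposited table. In the authors' deposited table SREBF1 had -0.16 ± 0.12, -0.00 ± 0.11 and 0.38 ± 0.18, none of them called (adjusted p = 0.123 in Jiyoye, DESeq2). INSIG1, which retains SCAP when sterol is plentiful and is itself an SREBP target, had 0.41 ± 0.20, -0.12 ± 0.19 and 0.10 ± 0.22 in BL-41, Namalwa and Jiyoye in the authors' deposited table. STARD4, whose gene is also under SREBF2, had -0.35 ± 0.15, -0.30 ± 0.20 and -0.25 ± 0.20 in the authors' deposited table. In BL-41, INSIG1 (adjusted p = 0.116) and STARD4 (adjusted p = 0.0577) did not pass by DESeq2 in the authors' deposited table and had opposite signs.

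Of the fatty acid genes, FASN rose in BL-41 and Jiyoye, FADS1 and FADS2 fell in BL-41, and the others were not called. FASN, fatty acid synthase, lies on chromosome 17 from 82078338 to 82098236 (GRCh38.p14). It had 3614 with scrambled and 6032 with FOXO3 shRNA in BL-41, 7540.2 with scrambled and 8262 with FOXO3 shRNA in Namalwa and 6467 with scrambled and 9570.2 with FOXO3 shRNA in Jiyoye in the authors' deposited table. In every line the arm with FOXO3 shRNA was higher. FASN rose in BL-41 by 0.74 (SE 0.13, adjusted p = 4.15e-07) and in Jiyoye by 0.57 (SE 0.14, adjusted p = 0.00123, DESeq2) in the authors' deposited table, and was not called in Namalwa (0.13 ± 0.12, adjusted p = 0.692). The enzymes around it in the route did not move with it past the test. ACLY, which makes cytosolic acetyl-CoA, had -0.15 ± 0.10, 0.07 ± 0.09 and 0.10 ± 0.11 in BL-41, Namalwa and Jiyoye, and ACACA, the carboxylase that makes malonyl-CoA, had 0.00 ± 0.11, -0.08 ± 0.09 and 0.13 ± 0.13 in the authors' deposited table. SCD had -0.16 ± 0.15, -0.04 ± 0.13 and 0.11 ± 0.19 in the authors' deposited table. For ACACA the 95% interval in BL-41 ran from -0.21 to 0.22, and for SCD from -0.46 to 0.13, both below that of FASN (0.48 to 1.00).

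FADS1 had 613 with scrambled and 429 with FOXO3 shRNA in BL-41 and fell by 0.51 on the log2 scale (SE 0.14, adjusted p = 0.00115, DESeq2) in the authors' deposited table. FADS2 had 744 with scrambled and 533 with FOXO3 shRNA in BL-41 and fell by 0.48 (SE 0.15, adjusted p = 0.00628, DESeq2) in the authors' deposited table. The pair thus fell by like amounts in the line where it was well expressed, although FADS2 did not pass under the Benjamini-Yekutieli adjustment (adjusted p = 0.0645). In Namalwa and Jiyoye FADS1 was at 14.9 and 10.9 with scrambled shRNA in the authors' deposited table, and the SE of its fold change was 0.39 and 0.47. These are close to the largest SE of those tables, so a change of the size seen in BL-41 was not detectable there for FADS1. ELOVL6 had 1595 with scrambled and 1587 with FOXO3 shRNA in BL-41, 1429 with scrambled and 1527 with FOXO3 shRNA in Namalwa and 461 with scrambled and 602 with FOXO3 shRNA in Jiyoye in the authors' deposited table. It lay just outside the threshold in Jiyoye (0.38 ± 0.15, adjusted p = 0.0505, DESeq2) in the authors' deposited table. The sign of the fold change was positive for 7 of 7 fatty acid genes in Jiyoye, where only FASN was called and 8675 of all 16787 genes were positive. FADS1 (0.19 ± 0.47) and FADS2 (0.28 ± 0.35) had low values in Jiyoye in the authors' deposited table, so their signs there are uncertain. In BL-41 the sign was positive for 2 of 7, where 8434 of 16001 genes were positive.

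**Figure D3:**
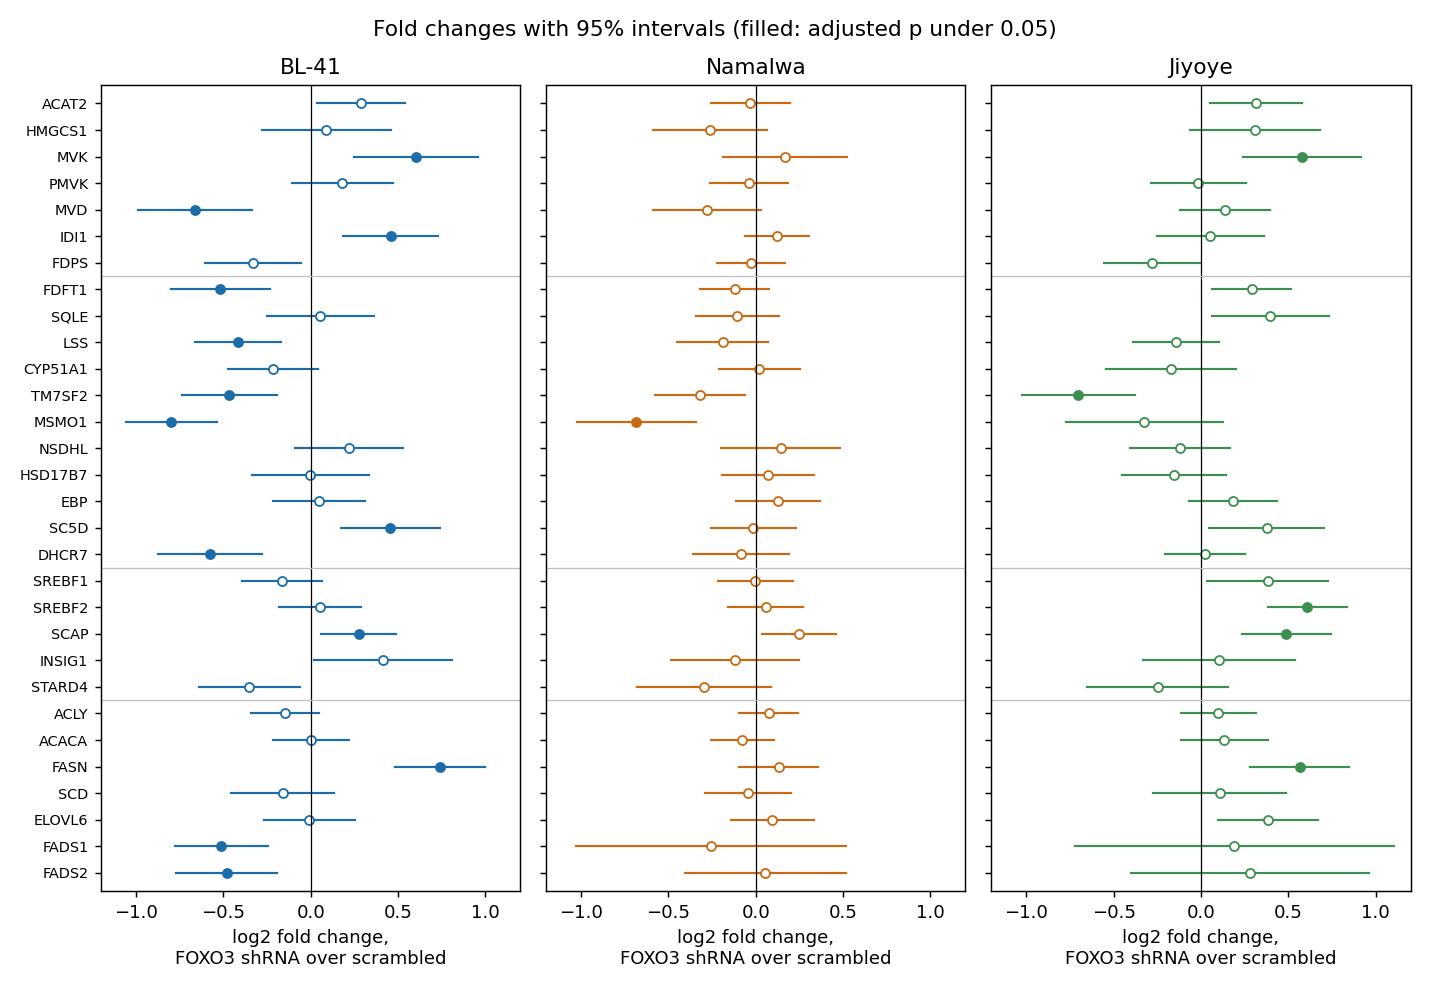
Log2 fold change of FOXO3 shRNA over scrambled shRNA for the 30 genes in the 3 lines, from 3 libraries per arm, with bars for the 95% interval from the recovered SE and filled points for an adjusted p under 0.05 (DESeq2, as deposited). FASN and MVK lie above 0 in BL-41 and Jiyoye, while MSMO1 and TM7SF2 lie below 0 in every line, and the bars of FADS1 are wide in Namalwa and Jiyoye.

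Differences between lines were tested by a two-sided z test of the gap between their log2 fold changes, adjusted over all genes of a pair of lines by the Benjamini-Hochberg method. The deposited fold changes are drawn towards 0 by amounts that differ between lines, and the part of this in the differences was not tested. Of the 30 genes, 4 passed between BL-41 and Jiyoye, where 6.25% of 15419 genes passed (8.15% of those averaging 100 or more in both). Between BL-41 and Namalwa 1 passed, where 7.01% of 14789 genes did (9.36%), and between Namalwa and Jiyoye 1 passed, where 2.75% of 14933 did (3.57%). FDFT1 had a fold change in BL-41 lower than that in Jiyoye by 0.81 (difference -0.81, SE 0.18, 95% interval -1.17 to -0.45, adjusted p = 0.000979 by the z test). MVD gave a difference of -0.80 (SE 0.21, adjusted p = 0.00672) and DHCR7 one of -0.60 (SE 0.19, adjusted p = 0.0319) between the same lines. These are enzymes of the mevalonate, squalene and last steps, and each fell in BL-41 and was not called in Jiyoye. The changes in Jiyoye were 0.29 for FDFT1, 0.14 for MVD and 0.02 for DHCR7, the last close to 0, in the authors' deposited table.

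SREBF2 set Jiyoye apart from both other lines. Its difference was -0.56 for BL-41 minus Jiyoye (SE 0.17, adjusted p = 0.0216 by the z test) and -0.55 for Namalwa minus Jiyoye (SE 0.16, adjusted p = 0.0254). These comparisons share the Jiyoye libraries. FASN gave 0.61 for BL-41 minus Namalwa (SE 0.17, adjusted p = 0.0141 by the z test). Its difference of 0.17 for BL-41 minus Jiyoye (95% interval -0.21 to 0.55) did not pass, nor did that of -0.43 for Namalwa minus Jiyoye (adjusted p = 0.233 by the z test). MSMO1, called in BL-41 and Namalwa and not in Jiyoye, did not differ between BL-41 and Jiyoye past the test (-0.47, 95% interval -0.99 to 0.05, adjusted p = 0.33). For FADS2, which was called in BL-41 and not in the other lines, BL-41 minus Jiyoye was -0.76 (SE 0.38, adjusted p = 0.245 by the z test). The median SE of a difference was 0.19 to 0.21 over the 30 genes.

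**Figure D4:**
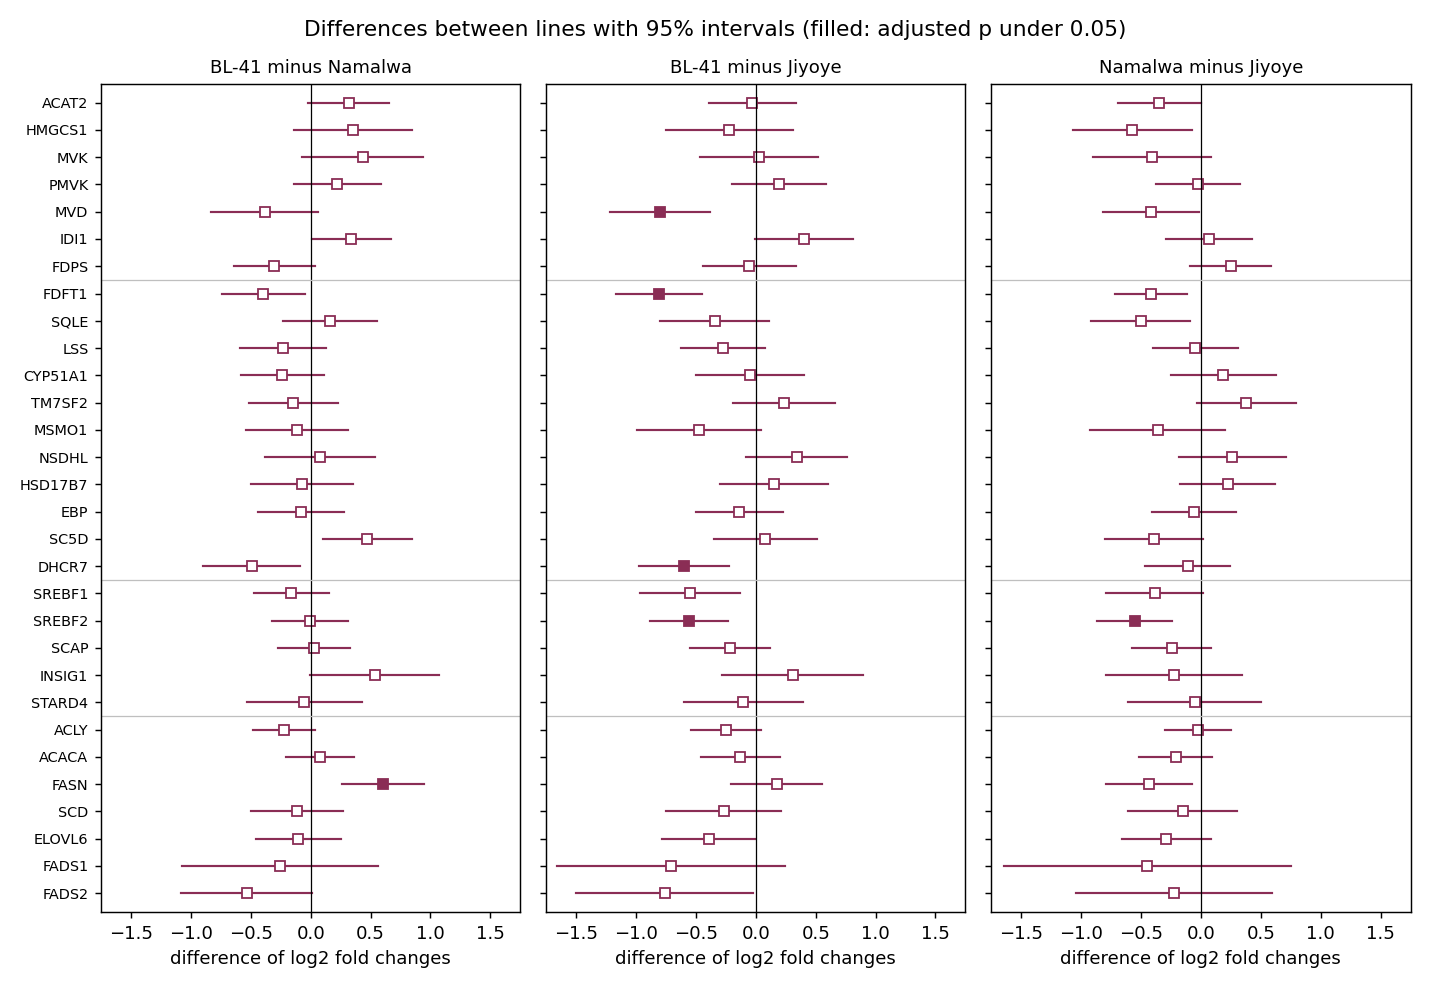
Difference of log2 fold changes between 2 lines for the 30 genes, with bars for the 95% interval and filled squares for an adjusted p under 0.05 by the z test. MVD, FDFT1, DHCR7 and SREBF2 pass between BL-41 and Jiyoye, SREBF2 between Namalwa and Jiyoye, and FASN between BL-41 and Namalwa.

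The rest of lipid metabolism was described with 5 further lists of 80 genes, of which the tables of BL-41, Namalwa and Jiyoye hold 77, 74 and 77. In BL-41 11 rose and 14 fell (32.5% called) and in Namalwa 2 rose and 4 fell (8.11%). In Jiyoye 6 rose and 7 fell (16.9%). Of all genes, 28.7%, 6.41% and 17.4% were called, and of those averaging 100 or more 40.7%, 9.61% and 25.5%. The lists were thus close to the first shares and below the second in every line. By list, in the order below, 16.7%, 46.2%, 21.4%, 36.4% and 37.5% were called in BL-41. The matching shares were 0%, 15.4%, 0%, 10% and 12.5% in Namalwa and 0%, 7.69%, 14.3%, 26.1% and 26.7% in Jiyoye. Of 12 other genes of sterol and isoprenoid synthesis, 0 rose (with 0 at an unadjusted p under 0.05, DESeq2) and 2 fell in BL-41. These were LBR, given above, and ACAT1, a mitochondrial thiolase (-0.44 ± 0.16 in the authors' deposited table). None of the 12 was called in Namalwa or Jiyoye by DESeq2, where 1 and 2 had an unadjusted p under 0.05.

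Of 13 genes of SREBP processing and sterol sensing, 4 rose and 2 fell in BL-41, 1 rose and 1 fell in Namalwa, and 1 rose and 0 fell in Jiyoye (with 2 negative at an unadjusted p under 0.05, DESeq2). The rise common to the lines was NR1H2, which codes for the oxysterol receptor LXR-beta. It had 393 with scrambled and 883 with FOXO3 shRNA in BL-41, 674 with scrambled and 912 with FOXO3 shRNA in Namalwa and 738 with scrambled and 1365 with FOXO3 shRNA in Jiyoye in the authors' deposited table. Its log2 fold changes there were 1.17 ± 0.13, 0.44 ± 0.12 and 0.89 ± 0.12 in the authors' deposited table, with an adjusted p of 2.68e-16, 0.00574 and 1.04e-10 (DESeq2). MBTPS2, the protease that makes the last cut in SREBPs, fell in BL-41 (-0.50 ± 0.15, adjusted p = 0.00364, DESeq2) in the authors' deposited table. MYLIP, a ubiquitin ligase induced by LXR, rose in BL-41 (0.57 ± 0.18, adjusted p = 0.0061) and had -0.58 ± 0.21 in Namalwa (adjusted p = 0.079, DESeq2) in the authors' deposited table. In Jiyoye MYLIP had 0.22 ± 0.19 in the authors' deposited table and was not called. RNF139, a ligase of the endoplasmic reticulum, fell in Namalwa (-0.42 ± 0.11, adjusted p = 0.00684, DESeq2) in the authors' deposited table.

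Of the genes of sterol transport and esterification, 1 rose and 2 fell of 14 in BL-41, 0 of 13 were called in Namalwa (1 positive and 3 negative at an unadjusted p under 0.05, DESeq2), and 1 rose and 1 fell of 14 in Jiyoye. SCARB1, the receptor for high-density lipoprotein, had 1674 with scrambled and 881 with FOXO3 shRNA in BL-41 and 1639 with scrambled and 1012 with FOXO3 shRNA in Jiyoye in the authors' deposited table. It fell in both (-0.93 ± 0.16 and -0.70 ± 0.15, adjusted p = 3.42e-07 and 6.51e-05, DESeq2) in the authors' deposited table. In Namalwa SCARB1 had -0.27 ± 0.13 in the authors' deposited table, which was not called (adjusted p = 0.274, DESeq2). NPC1, which exports cholesterol from lysosomes, fell in BL-41 (-0.38 ± 0.13, adjusted p = 0.0116, DESeq2) and had -0.33 in Namalwa and -0.36 in Jiyoye, not called, in the authors' deposited table. STARD3, a sterol carrier of late endosomes, rose in BL-41 (0.59 ± 0.13, adjusted p = 5.41e-05, DESeq2) in the authors' deposited table. STARD3 had 0.24 ± 0.11 in Namalwa and 0.35 ± 0.13 in Jiyoye in the authors' deposited table. Neither was called (adjusted p = 0.205 and 0.0550, DESeq2). ABCG1, a sterol exporter induced by LXR, rose in Jiyoye (0.81 ± 0.18, adjusted p = 0.000189, DESeq2) in the authors' deposited table. It was not called in BL-41 (0.15 ± 0.13) or Namalwa (-0.00 ± 0.12) in the authors' deposited table.

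Among other genes of fatty acid synthesis and elongation, 3 rose and 5 fell of 22 in BL-41, 1 rose and 1 fell of 20 in Namalwa, and 4 rose and 2 fell of 23 in Jiyoye. ELOVL5, which lengthens the polyunsaturated products of FADS1 and FADS2, had 3488 with scrambled and 1735 with FOXO3 shRNA in BL-41 and 1997 with scrambled and 1273 with FOXO3 shRNA in Namalwa in the authors' deposited table. It fell in both (-1.01 ± 0.12 and -0.65 ± 0.09, adjusted p = 7.59e-16 and 7.72e-10, DESeq2) and had -0.03 ± 0.11 in Jiyoye in the authors' deposited table. In BL-41, FADS1, FADS2 and ELOVL5 thus all fell, while FASN rose. ACSL1, an acyl-CoA synthetase, rose in all 3 lines (0.73, 0.34 and 0.39, adjusted p = 1.31e-05, 0.0199 and 0.0342, DESeq2) in the authors' deposited table. ACACB, the mitochondrial carboxylase, fell in BL-41 (-1.18 ± 0.29) and Jiyoye (-0.45 ± 0.14, adjusted p = 0.000332 and 0.00948, DESeq2) in the authors' deposited table. In Namalwa ACACB had -0.48 ± 0.18 in the authors' deposited table, which was not called (adjusted p = 0.0881, DESeq2). In Jiyoye the lipid phosphatase gene LPIN1 (0.96 ± 0.16) and the elongation reductase gene HSD17B12 (0.79 ± 0.16) rose and ACSS2, which makes acetyl-CoA from acetate (-0.66 ± 0.18), fell in the authors' deposited table.

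Fatty acid oxidation, the opposing route, had 3 genes up and 3 down of 16 in BL-41. In Namalwa 0 rose and 2 fell of 16 (DESeq2, with 0 positive at an unadjusted p under 0.05), and in Jiyoye 0 rose and 4 fell of 15 (with 1 positive at that level). ACADVL, which opens the breakdown of very long chains, fell in Namalwa (-0.64 ± 0.13, adjusted p = 3e-05) and Jiyoye (-0.59 ± 0.10, adjusted p = 7.26e-07, DESeq2) in the authors' deposited table. PPARA, a nuclear receptor that drives oxidation, fell in the same lines (-0.72 ± 0.19 and -0.49 ± 0.17 in the authors' deposited table). CPT2, the inner carnitine transferase, and ETFDH, which passes electrons on from acyl-CoA dehydrogenases, fell in BL-41 (-0.77 and -0.67) and Jiyoye (-0.47 and -0.45) in the authors' deposited table. CPT1A, the entry step to mitochondria, rose in BL-41 (0.49 ± 0.12, adjusted p = 0.000477, DESeq2) in the authors' deposited table.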

How the data were processed

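Per the series' design text, SOAPnuke filtered the reads of 18 libraries. Bowtie2, RSEM, DESeq2 and the build hg38 stand without versions in the submitters' processing notes. The authors deposited 1 table per line. It holds 1 signal value per arm, normalized by the authors in a way not given in the sources used here, and never 0, whose ratio equals their log2 fold change (largest difference 1.39e-14) and so carries the same moderation towards 0 that the values themselves show. p-values, raw and adjusted, were deposited from the authors' DESeq2 run. Their up and down marks need an adjusted p under 0.05 and a log2 fold change of 0.58 or more in either direction, while calls here need only the adjusted p. The deposited transcript length served for levels per kilobase.

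An SE was recovered by dividing the log2 fold change by the normal deviate of its p, intervals are at 95%, and lines were compared with z tests. Named genes are the 30 members, FOXO3, and up to 3 called genes with the smallest adjusted p per list and line, of which 1 is not reported here. Members and lists were chosen with earlier results of these data known. Promoters come from RefSeq (GRCh38.p14), and exon overlaps from GENCODE 44. Genes that overlap a member and marker genes were named after their values were seen. Alternatives tried were other thresholds, adjustments, a limit on low values, centring and promoter windows. Versions were matplotlib 3.10.9, scipy 1.17.1, pandas 2.3.3, numpy 2.4.6 and Python 3.11.15.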

Additional observations from a re-analysis of the deposited data

Results flagged for a closer look

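Each of these results was picked out because the response of 1 gene differed between 2 lines by the z test. Between BL-41 and Jiyoye the difference of log2 fold changes was -0.81 for FDFT1, -0.80 for MVD, -0.60 for DHCR7 and -0.56 for SREBF2. Between Namalwa and Jiyoye it was -0.55 for SREBF2. Between BL-41 and Namalwa it was 0.61 for FASN. FOXO3 itself was called in BL-41 and Namalwa and not in Jiyoye, and its part in these differences was not tested.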

How the results depend on the processing

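No paired analysis was possible because the deposited tables hold 1 value per arm, so the replicate numbers of the titles reach no column. For the same reason leaving out single libraries was not run. Requiring log2 fold changes of 0.5 or more in either direction left 2 of 5 rises and 5 of 8 falls in BL-41, 1 fall in Namalwa, and 3 of 4 rises and 1 fall in Jiyoye. The limit of 0.58, chosen after seeing the data, left 2 rises and 2 falls in BL-41, 1 fall in Namalwa, and 1 rise and 1 fall in Jiyoye. Benjamini-Yekutieli adjustment left 1 rise (FASN) and 6 falls in BL-41, 1 fall in Namalwa, and 3 rises and 1 fall in Jiyoye. At an adjusted p under 0.01, 2 genes differed between BL-41 and Jiyoye (FDFT1 and MVD), 0 between BL-41 and Namalwa and 0 between Namalwa and Jiyoye (z test, with 5 and 7 at an unadjusted p under 0.05). Centring fold changes on the median of genes averaging 100 or more changed no call and no sign in the 90 gene and line pairs. Adjusting over genes averaging 100 or more, which leaves out 3 pairs under that limit, ended no call and added FDPS in BL-41, STARD4 in BL-41, FDFT1 in Jiyoye and ELOVL6 in Jiyoye. No promoter count moved by over 1.5 times in the shorter window.

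Of the 11 rises and 14 falls of the further lists in BL-41, 7 and 9 were left at an adjusted p under 0.01, 6 and 6 at the limit of 0.5, 4 and 5 at 0.58, and 5 and 8 under Benjamini-Yekutieli adjustment. In Namalwa the 2 rises became 1 at an adjusted p under 0.01 and 0 under the other 3 settings (DESeq2, 3 positive at an unadjusted p under 0.05), and the 4 falls became 2 under Benjamini-Yekutieli. In Jiyoye the 7 falls became 3 at the limits of 0.5 and 0.58 and under Benjamini-Yekutieli. Precision is limited by 3 libraries per arm, and by low values for FADS1 in Namalwa and Jiyoye and for FADS2 in Jiyoye.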
